A study of Rattus norvegicus with 16 samples.

Results

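Fos, Fosb, Jun and Junb encode subunits of AP-1, a dimeric transcription factor, and were followed here as 4 of the 32883 annotated rat genes in the count data. The 4 were given by gene identifier and were chosen with earlier results of these data known, so their counts beside those of all genes are a description. All 4 passed the low-count filter that left 14241 genes for testing. AP-1 is built from a Fos-family protein with a Jun-family protein, or from Jun-family proteins alone, and binds short DNA elements near its target genes. In neurons these genes are known as immediate-early genes: strong synaptic input or hormone signals raise their mRNA quickly and without new protein synthesis, and the mRNA is short-lived. Fosb also yields, by splicing, a truncated and long-lived protein known for building up under repeated stimulation, and counts per gene do not separate that transcript from the full-length one.

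The RNA came from the nucleus basalis of Meynert in the basal forebrain, known for cholinergic neurons that supply the cortex and serve attention. The groups were stressed females, control females, stressed males and control males, with 4 libraries each, all from Long Evans rats aged at least 70 days of the ChAT::Cre line, in which Cre recombinase is tied to the choline acetyltransferase gene. All groups carry that transgene, and the labels name no further agent or virus. The kind of stress, its duration and the time from the last exposure to tissue collection are not given in the sources used here beyond the abbreviation VS. No source says that libraries came from different animals, and a p-value here therefore reflects library-to-library spread, which may be technical. In whole tissue, fewer cells that express a gene and less of its RNA per cell cannot be told apart, and because the files name no genes, markers of cholinergic neurons or of other cell types could not be looked up. Libraries are called by the number in their title; for stressed females that number differs from the one attached to the counts, which touches single libraries of that group but no comparison of groups.

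Total gene counts were 22.7 to 73.8 M per library, of which 64.2% to 82.5% were mitochondrial, so that 5.86 to 22.6 M nuclear counts were left. In 13 libraries counts had the HTSeq layout, while female control 10, male stress 11 and male control 20 were counted with featureCounts, which took each read of a pair on its own. No stressed female library was counted that way. Summed over the Y chromosome, counts matched the labelled sex in all 16 libraries, at 8.28 to 11.4 per M nuclear counts in females and 281 to 326 in males.

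Each of the 4 genes is on its own chromosome in Rnor_6.0, and 0 other annotated genes overlap any of them. Fos (ENSRNOG00000008015) lies on the plus strand of chromosome 6, at 109300433 to 109303299, with 4 exons that sum to 1589 bases. Fosb (ENSRNOG00000046667) lies on the minus strand of chromosome 1, at 80214494 to 80221710, with 4 separate exons that sum to 3741 bases. Jun (ENSRNOG00000026293) is a single exon of 3089 bases on the minus strand of chromosome 5, at 114011189 to 114014277, and Junb (ENSRNOG00000042838) a single exon of 1783 bases on the minus strand of chromosome 19, at 26092974 to 26094756. Counts were low for 3 of them. Fos had 8 to 86 counts per library, Fosb 23 to 134, Junb 10 to 53 and Jun 160 to 782. Each of these highest counts came from a library counted with featureCounts. In the HTSeq libraries the highest were 55 for Fos, 85 for Fosb, 37 for Junb and 398 for Jun. The 8 Fos counts of female control 6 carry an exact 95% Poisson interval of 3.45 to 15.8 counts, which covers counting error only, as do all such intervals, since reads without molecular identifiers are not independent molecules.

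Levels between genes were compared per kilobase of exon, as CPM (counts per M counts, scaled by edgeR's TMM factors) divided by exon length, where the denominator of CPM includes mitochondrial counts. Jun was the most abundant, at a mean of 2.39 ± 0.48 CPM per kilobase (SD over 16 libraries), and stood above each of the other 3 genes in all 16 libraries, by a median 5.11-fold over Fosb. Fosb followed at 0.472 ± 0.18, Fos at 0.450 ± 0.24 and Junb at 0.376 ± 0.099 CPM per kilobase. Over all 16 libraries the ranges of these 3 overlapped, and their order differed between groups. Fosb was above Fos in 0 of 4 stressed females, 1 of 4 control females, 3 of 4 stressed males and 4 of 4 control males. Fosb was above Junb in all 12 libraries outside the control females and in 1 of 4 control females. Jun ranked above 61.6% of the tested genes by mean CPM, Fosb above 31.5%, Fos above 16.9% and Junb above 15.9%.

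Stress on average over the sexes was the comparison with the most libraries on each side, 8 against 8. By edgeR's quasi-likelihood test none of the 4 genes was called at an adjusted p under 0.05 (0 of 4), where 0.337% of all tested genes were. At an unadjusted p under 0.05, 3 of the 4, Fos, Fosb and Jun, were higher in stressed rats, against 5.28% of all tested genes that were higher by that rule. That count rested on single libraries: without female stress 2 Fos alone was past it, with Fosb at 0.36 and Jun at 0.25 on the log2 scale, and without male stress 13 or male control 18 Fos and Fosb were. Without male stress 13 the average effect of Jun was 0.17. All 4 fitted log2 fold changes were above 0, with a median of 0.39, where the median of all tested genes was 0.01 and 51.7% of them were above 0. Fos had the largest of the 4, then Fosb, Jun and Junb.

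Fos is the founding member of its family and a common marker of recently active neurons. Its level was 0.695, 1.64, 0.892 and 0.906 CPM in stressed females 1, 2, 3 and 4, against 0.290, 0.415, 0.447 and 0.973 CPM in control females 6, 7, 8 and 10. The female groups overlapped through a single control, number 10, which lay above 3 of the 4 stressed females. In males Fos was at 0.624, 1.23, 0.938 and 0.903 CPM in stressed libraries 11, 12, 13 and 14, against 0.481, 0.286, 0.329 and 0.398 CPM in controls 16, 17, 18 and 20. Every stressed male lay above every control male, which was so for 2.96% of all tested genes. Fos averaged 1.03 ± 0.42 CPM in the stressed females against 0.531 ± 0.30 CPM in the control females, and 0.923 ± 0.25 CPM in the stressed males against 0.373 ± 0.085 CPM in the control males (SD, n = 4 each).

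On average over the sexes Fos was 2.12-fold higher with stress (log2 fold change 1.08, SE 0.28, 95% interval 0.50 to 1.66), at an unadjusted p of 0.000748 and an adjusted p of 0.121 by edgeR, the 88th smallest p of 14241. Its log2 fold change was 0.87 (SE 0.39, adjusted p = 0.757 by edgeR) in females and 1.29 (SE 0.41, adjusted p = 0.381) in males. Without female control 10 the effect in females was 1.42 (adjusted p = 0.612 by edgeR), and without female stress 2 it was 0.56 (adjusted p = 0.811). The difference of the stress effects over all libraries, female minus male, was -0.41 (SE 0.56, adjusted p = 1.0 by edgeR). This difference was 0.13 without female control 10, -0.066 in the HTSeq libraries and -0.72 without female stress 2.

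Whether Fos was called turned on female control 10 and on the settings. Leaving that library out gave an average effect of 1.35 on the log2 scale, at an adjusted p of 0.0280 by edgeR, where 0.297% of tested genes were called. In the HTSeq libraries alone it was 1.45 (adjusted p = 0.0366 by edgeR), where 0.201% were called. DESeq2 also called Fos, at 1.08 (adjusted p = 0.0390, with 0.723% of tested genes called), as did edgeR without the low-count filter, at 1.07 (adjusted p = 0.0452, with 0.821% called). In the other 4 of the 7 settings it was not called: 1.17 with the counting tool as a covariate (adjusted p = 0.124 by edgeR), 0.94 with limma voom (adjusted p = 0.187), and 1.08 by edgeR both without mitochondrial genes (adjusted p = 0.124) and with a filter of 10 counts in 8 libraries (adjusted p = 0.115). Female control 10 had the lowest mitochondrial share of the 16 libraries, 64.2%, and the most nuclear counts, 22.6 M, and was counted with featureCounts; the part of these in its Fos level was not tested.

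**Figure D1:**
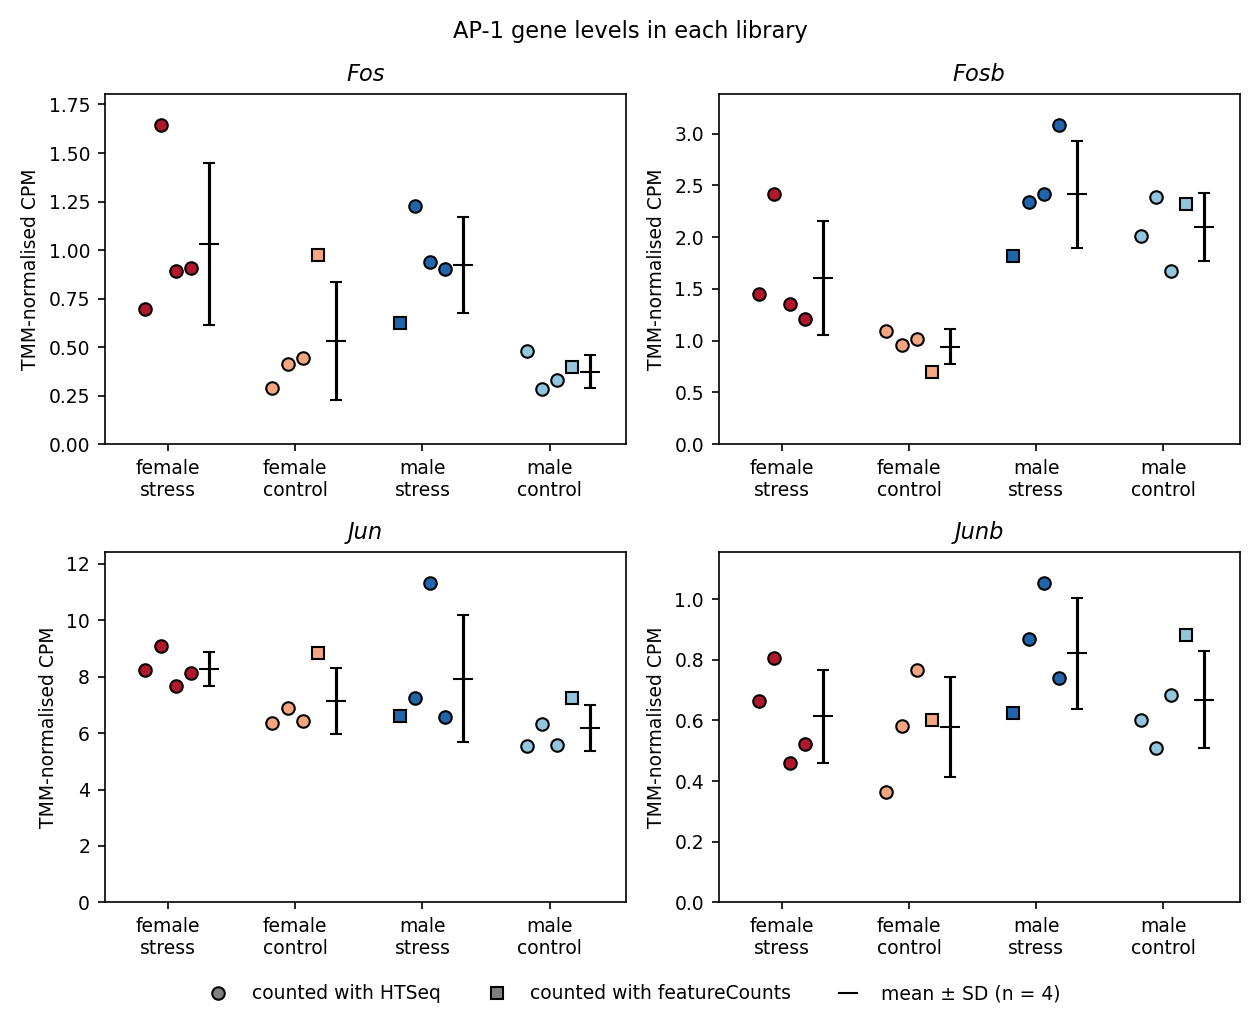
Level of each gene in every library (vertical axes, TMM-normalised CPM, each from 0), by group; circles are libraries counted with HTSeq, squares those counted with featureCounts, and black bars the mean ± SD of 4 libraries. In Fos the square among the control females, at 0.973 CPM, lies within the stressed range, and in Fosb all control females lie below all control males.

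Within the HTSeq libraries, Fos and Jun had every stressed library above every control of its sex in both sexes, 2 of the 4 genes, where 0.477% of all tested genes did. In HTSeq females alone this held for 3 of the 4, Fos, Fosb and Jun, against 3.34% of tested genes, and in HTSeq males for 3, Fos, Jun and Junb, against 7.51%. Fos averaged 1.03 ± 0.42 CPM in the 4 stressed and 0.384 ± 0.083 CPM in the 3 control HTSeq females. In HTSeq males it averaged 1.02 ± 0.18 CPM in 3 stressed and 0.365 ± 0.10 CPM in 3 control libraries.

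Fosb encodes the second Fos-family subunit. It was at 1.45, 2.42, 1.35 and 1.21 CPM in stressed females 1 to 4, against 1.09, 0.955, 1.02 and 0.701 CPM in control females 6, 7, 8 and 10. Every stressed female lay above every control female, as did 1 of the 4 genes here and 1.72% of all tested genes. In males it was at 1.82, 2.34, 2.41 and 3.08 CPM in stressed libraries 11 to 14, against 2.01, 2.38, 1.67 and 2.32 CPM in controls 16, 17, 18 and 20, and the groups overlapped. The log2 fold change of Fosb with stress was 0.80 (SE 0.27, 95% interval 0.25 to 1.34, adjusted p = 0.578 by edgeR) in females and 0.19 (SE 0.25, 95% interval -0.32 to 0.70, adjusted p = 0.908) in males. On average it was 0.49 (SE 0.18, adjusted p = 0.318 by edgeR). The difference between the sexes, 0.61 (SE 0.36, 95% interval -0.14 to 1.35), did not pass the test (adjusted p = 1.0 by edgeR). It was 0.34 without female stress 2 and 0.28 in the HTSeq libraries. Leaving out a library also moved the effect in males, to 0.058 without male stress 14, 0.089 without male control 18 and 0.31 without male stress 11.

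Jun encodes the main partner of the Fos proteins and, unlike them, can also pair with itself. It was at 8.24, 9.08, 7.66 and 8.12 CPM in stressed females 1 to 4, against 6.35, 6.90, 6.44 and 8.85 CPM in control females 6, 7, 8 and 10. As with Fos, control female 10 was the one control within the stressed range. In stressed males 11 to 14 Jun was at 6.62, 7.25, 11.3 and 6.57 CPM, against 5.56, 6.32, 5.57 and 7.26 CPM in control males 16, 17, 18 and 20. Stressed male 13 stood apart from the other 3, which lay within the control range through control male 20 alone. The log2 fold change of Jun was 0.20 (SE 0.17) in females, 0.36 (SE 0.17) in males and 0.28 (SE 0.12, 95% interval 0.04 to 0.52) on average, with an adjusted p of 0.872, 0.615 and 0.405 by edgeR. Without male stress 13 the effect in males was 0.14 (adjusted p = 0.923 by edgeR). The effect in males was 0.45 without male control 20 (adjusted p = 0.748 by edgeR) and 0.53 in the HTSeq libraries (adjusted p = 0.598). Without female control 10 the effect in females was 0.33 (adjusted p = 0.935 by edgeR).

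Junb encodes a Jun-family subunit that activates many AP-1 targets less strongly than Jun does. It was at 0.664, 0.806, 0.461 and 0.521 CPM in stressed females 1 to 4, against 0.363, 0.582, 0.766 and 0.600 CPM in control females 6, 7, 8 and 10, with the groups intermixed. In males it was at 0.624, 0.869, 1.05 and 0.739 CPM in stressed libraries 11 to 14, against 0.601, 0.508, 0.682 and 0.882 CPM in controls 16, 17, 18 and 20, and the groups again overlapped. The log2 fold change of Junb was 0.08 (SE 0.36) in females, 0.28 (SE 0.35) in males and 0.18 (SE 0.25, adjusted p = 0.871 by edgeR) on average. Its 95% interval on average ran from -0.34 to 0.69. A change of the size fitted for Fos lies outside it, and changes in either direction up to these bounds lie within it. The average was 0.093 without female stress 2, 0.098 without female control 6 and 0.105 without male stress 13, and the effect in males was 0.13 without male stress 13, 0.17 without male control 17 and 0.45 without male control 20.

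**Figure D2:**
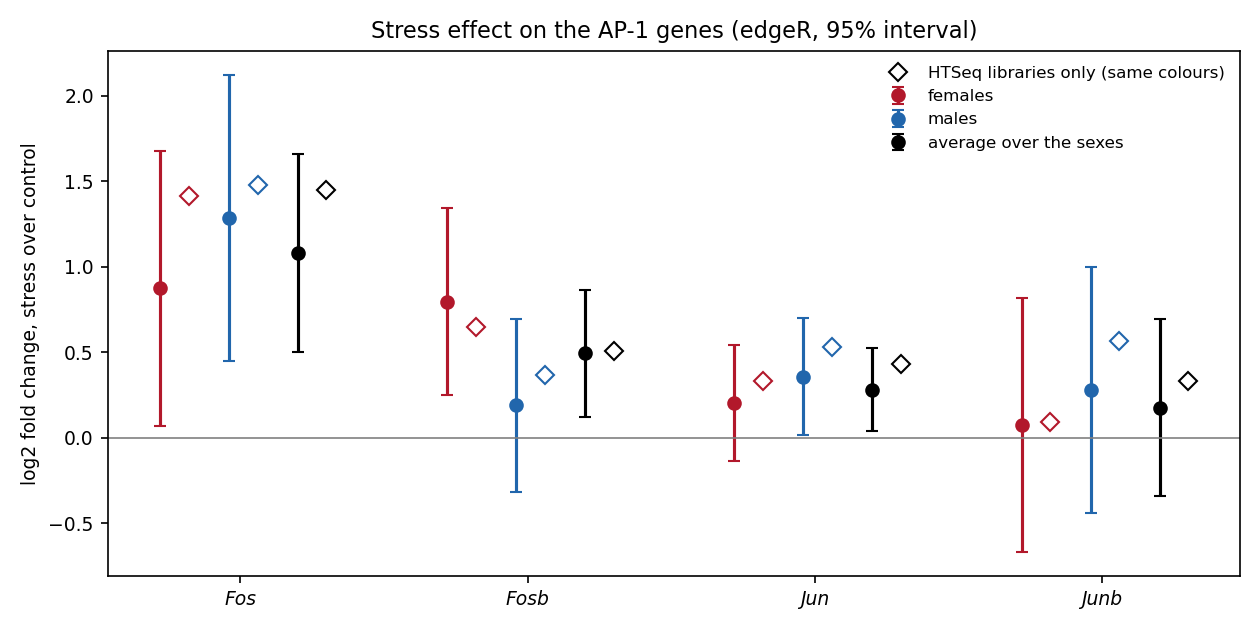
Stress effect on each gene as log2 fold change, stress over control, in females, in males and on average over the sexes; filled circles and bars are edgeR estimates from all 16 libraries with 95% intervals, and open diamonds of the same colour are estimates from the HTSeq libraries. The average effect of Fos is 1.08 over all libraries and 1.45 in the HTSeq libraries, while the intervals of Junb span 0 in each comparison.

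Taken one sex at a time, none of the 4 genes was called for stress. In females 0.0632% of all tested genes were called, and 2 of the 4, Fos and Fosb, were higher at an unadjusted p under 0.05, against 3.34% of all tested genes. Without female stress 2 neither was, and without female control 6, 7 or 8 Fosb alone was. In males 0.119% of tested genes were called, and Fos and Jun were higher at an unadjusted p under 0.05, against 4.21%. Without male stress 13 or without male control 16, 17 or 18, Fos alone was. For the difference of the stress effect between the sexes 0% of tested genes were called by edgeR, and 0 of the 4 had an unadjusted p under 0.05 in either direction, against 4.01% of all tested genes. DESeq2 called 1 gene and limma voom 0 for that difference, and neither called any of the 4. The stress comparison on average shares its libraries with those in females and in males, which share none with each other. All of them use the same estimate of spread per gene, so they are not independent of each other.

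Ratios between the genes within a library do not depend on the library size. The 2 ratios given here were chosen after their values were seen and were given no test. Per kilobase, Fos was above Junb in all 8 stressed libraries, by 1.17-, 2.29-, 2.17- and 1.95-fold in females and by 1.12-, 1.59-, 1.00- and 1.37-fold in males. It was above Junb in 1 of 8 controls, control female 10 at 1.82-fold, and the others ran from 0.506- to 0.898-fold. Stressed male 13 was at parity, with 33 Fos and 37 Junb counts. These counts of libraries depend on the scaling by exon length. On CPM alone Fos was above Junb in 4 of 4 stressed females and 2 of 4 stressed males. Among controls it was above Junb on CPM alone in 1 of 4 females and 0 of 4 males. Fosb per kilobase was 0.566- to 0.886-fold of Fos in stressed females, against 0.306- to 1.59-fold in control females, which overlapped through control 10 alone. It was 0.808- to 1.45-fold of Fos in stressed males, against 1.78- to 3.54-fold in control males, and these groups did not overlap. Fos alone also had every stressed male above every control male, as did 2.96% of all tested genes. No such share was computed for ratios.

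**Figure D3:**
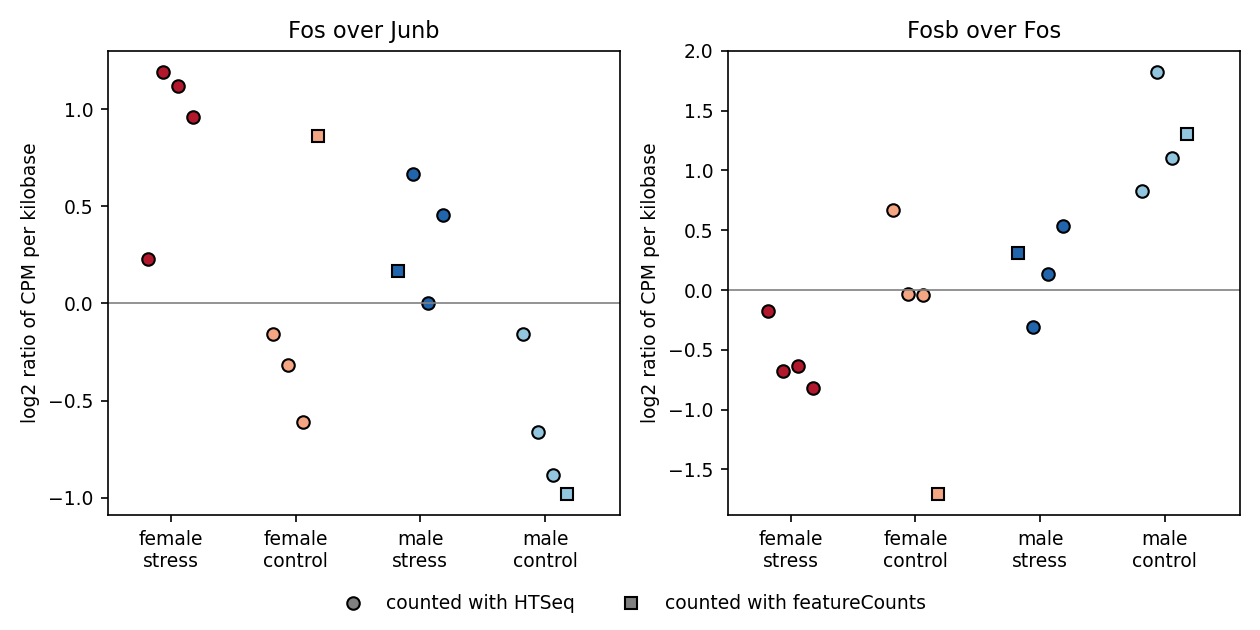
Ratio of levels within each library, as log2 of CPM per kilobase of Fos over Junb and of Fosb over Fos, by group; circles are libraries counted with HTSeq, squares those counted with featureCounts, and 0 marks equal levels. Per kilobase, all 8 stressed libraries lie at or above 0 for Fos over Junb, while 7 of 8 controls lie below it.

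Females and males were compared within each condition. Among control rats Fosb was lower in females, at 0.942 ± 0.17 CPM in control females and 2.10 ± 0.33 CPM in control males (SD, n = 4 each). All control females lay below all control males, as 1.66% of tested genes did. The log2 fold change, female over male, was -1.18 (SE 0.26, 95% interval -1.72 to -0.64), the 18th smallest p of 14241, and missed the threshold by edgeR at an adjusted p of 0.102. None of the 4 genes was called there, where 0.112% of all tested genes were. At an unadjusted p under 0.05 Fosb alone of the 4 was lower in females, against 3.05% of tested genes. DESeq2 called Fosb at -1.19 (adjusted p = 0.0104, with 0.169% of tested genes called), and edgeR without the low-count filter at -1.18 (adjusted p = 0.0232, with 0.214% called). In the HTSeq libraries alone it was -0.98 (adjusted p = 0.833 by edgeR).

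Fos, Jun and Junb had log2 fold changes of 0.58 (SE 0.41), 0.21 (SE 0.17) and -0.22 (SE 0.36) between control females and control males. The value of Fos rested on female control 10, and without that library it was 0.044 (adjusted p = 1.0 by edgeR), with Jun at 0.087. The value of Junb was -0.061 without female control 6, -0.045 without male control 20 and -0.37 without female control 8. Among stressed rats none of the 4 was called either, against 0.0913% of all tested genes. Fosb averaged 1.61 ± 0.55 CPM in the stressed females against 2.41 ± 0.52 CPM in the stressed males (SD, n = 4 each). These groups overlapped through stressed female 2, and the log2 fold change was -0.58 (SE 0.25, adjusted p = 0.870 by edgeR). It was again the one of the 4 genes lower in females at an unadjusted p under 0.05, against 3.01% of tested genes, and was no longer past that level without female stress 1, 3 or 4 or without male stress 14. Fos differed by 0.17 (SE 0.38), Jun by 0.06 (SE 0.17) and Junb by -0.42 (SE 0.35, and -0.27 without male stress 13) between stressed females and stressed males.

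**Figure D4:**
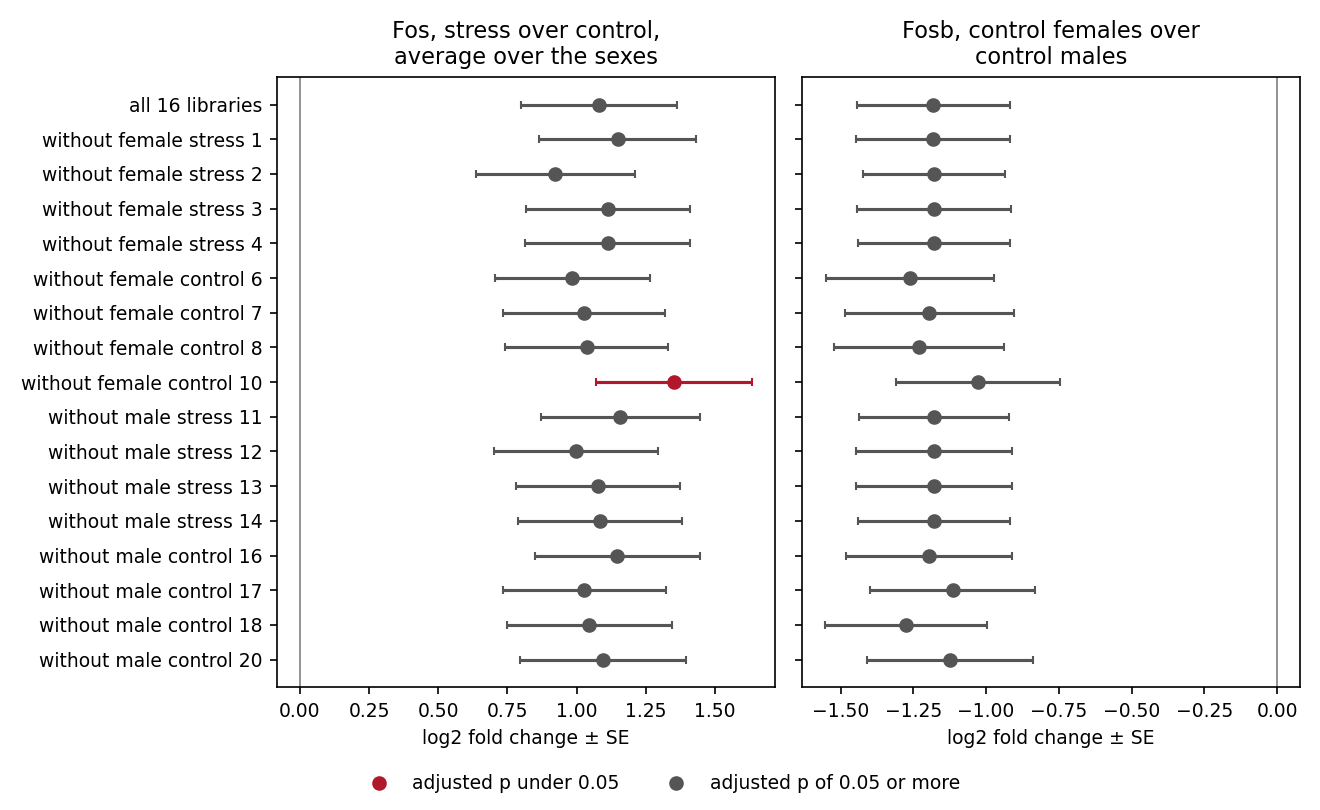
Log2 fold change ± SE (edgeR) with all 16 libraries and without each library in turn, for Fos with stress over control averaged over the sexes and for Fosb in control females over control males; red marks an adjusted p under 0.05. The Fos effect lies between 0.92 and 1.35 and is called in 1 of the 16 runs, without female control 10, and the Fosb difference lies between -1.28 and -1.03 and is called in none.

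By mean level over all 16 libraries the 4 groups fell in one order for Fos and Jun and in another for Fosb and Junb. Fos ran from stressed females (1.03 CPM) over stressed males (0.923) and control females (0.531) to control males (0.373). Neighbours overlapped at every step, stressed males and control females through female control 10 alone. Fosb ran from stressed males (2.41 CPM) over control males (2.10) and stressed females (1.61) to control females (0.942), and only the last step, from stressed to control females, was free of overlap between neighbours. Jun ran from stressed females (8.28 CPM) over stressed males (7.94) and control females (7.13) to control males (6.18), and Junb from stressed males (0.821 CPM) over control males (0.668) and stressed females (0.613) to control females (0.577), with overlap at every step in both. In the HTSeq libraries alone these shared orders did not hold. Jun was higher there in stressed males (8.38 CPM) than in stressed females (8.28 CPM), while Fos was at 1.02 and 1.03 CPM. Junb was higher in stressed females (0.613 CPM) than in control males (0.597 CPM), while Fosb was at 1.61 and 2.02 CPM. The Jun mean of stressed males also includes library 13, at 11.3 CPM.

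Female stress 2 was the highest of its group for all 4 genes, with 1.64 CPM of Fos and 2.42 CPM of Fosb. The share of all tested genes that were highest in that library was not computed. Without female stress 2 the stress effect of Fosb in females was 0.52 on the log2 scale. Across the 16 libraries, log2(CPM + 1) of Fos and of Jun were related with Pearson's r at 0.67 and Spearman's rho at 0.74, and r was 0.71 when the 2 libraries farthest from the median of Fos were left out. Taken as deviations from the group means, their Pearson correlation was 0.44. Fosb and Junb had a Pearson correlation of 0.53 (Spearman 0.54), 0.58 without the 2 libraries farthest in Fosb and 0.31 as deviations from the group means. Fosb and Jun had 0.01 (Spearman 0.04), 0.26 without the 2 farthest and 0.099 as deviations. The points share the library and its depth, and the values are a description without a test.

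The profiles most like that of Fos among the other 14237 tested genes were ENSRNOG00000003300 on chromosome 13 (50913180 to 50916982), with a Pearson correlation of 0.81, and ENSRNOG00000058186 on chromosome 5 (167952728 to 167966009), with 0.80. As deviations from the group means these were 0.41 and 0.49, so the group differences that the libraries share enter the likeness. Both were called in the stress comparison averaged over the sexes, with log2 fold changes of 1.83 (adjusted p = 3.76e-05) and 0.62 (adjusted p = 0.00359) by edgeR. Jun ranked 79th in likeness to Fos, Junb 1248th and Fosb 3063rd. Most like Fosb were the genes on chromosome 8 at 116332796 to 116335435 (Pearson correlation 0.87) and on chromosome 10 at 95200030 to 95212111 (0.84). Most like Jun were those on chromosome 3 at 2579258 to 2584523 (0.85) and at 113376983 to 113400707 (0.84). Most like Junb were those on chromosome X at 135240451 to 135250519 (0.85) and on chromosome 14 at 85230648 to 85281803 (0.80). The gene on chromosome X was low, at a mean of 0.319 CPM, where Junb was at 0.670 CPM. As deviations from the group means the correlations of these 6 genes were 0.62 to 0.80. None of the 6 was called for stress on average, with adjusted p-values of 0.234 to 0.976 by edgeR.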

How the data were processed

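The authors deposited raw counts per Ensembl gene, 1 table per library. Per the labels' protocols, library preparation used NuGen's Ovation RNA-Seq kit and sequencing was paired-end. Per the submitters' processing notes STAR 2.5.2a and HTSeq were used with Rnor_6.0; per the file headers, counts of 3 libraries came from featureCounts 1.6.1 with Ensembl release 92, without a strand or pair option. The strand setting for the other 13 is not given in the sources used here. HTSeq's summary lines, which name no gene and held 44.8% to 64.7% of what those tables count, were left out.

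Counts were fitted with edgeR 4.0.16 in R 4.3.3 (TMM factors, filterByExpr, robust quasi-likelihood, 4 group means over 16 libraries) across all genes, with Benjamini-Hochberg adjustment within each of 6 contrasts and a threshold of 0.05. SE is the absolute log2 fold change over the root of F. Alternatives used DESeq2 1.42.0, limma voom (limma 3.58.1), other filters, the tool as a covariate, subsets of libraries and leaving out each library. Group means, SD, ratios and correlations were computed from TMM-normalised CPM.

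The members and lists were chosen with earlier results of these data known. The reference names cover 47357 genes, and 0 of these carry an Ensembl identifier, so the lists of other AP-1 genes, upstream and early response genes and cell type markers could not be applied; names of the 4 genes came with their identifiers. Named genes were the 4, plus the genes most like each by Pearson correlation of log2(CPM + 1), with 2 identifiers printed. Replicate numbers are the title numbers, which no 2 groups share.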

Additional observations from a re-analysis of the deposited data

Results flagged for a closer look

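Jun in male stress 13 stood apart from its group, with 11.3 CPM, while stressed males 11, 12 and 14 had 6.57 to 7.25 CPM. It was the 1 of 16 gene and group combinations screened in which the gap of an extreme library to its nearest neighbour exceeded the 95% critical value for 4 values (0.856 of the range, against 0.829), and chance flags about 1 in 20. Junb was also highest in that library, at 1.05 CPM.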

How the results depend on the processing

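Over 24 results (4 genes in 6 comparisons), 558 alternative values had an adjusted p, and any without one were not counted. Of the 558, 544 kept their direction and stayed on their side of the threshold, 6 passed it and 8 changed sign. Those that passed were Fos with stress on average (DESeq2 1.08, no low-count filter 1.07, HTSeq libraries only 1.45, and 0.92 to 1.35 when each library was left out, passing without female control 10 only) and Fosb in control females over control males (DESeq2 -1.19, no filter -1.18). The sign changed when single libraries were left out: Junb in females ranged from -0.089 to 0.23, the sex difference of the stress effect from -0.72 to 0.13 for Fos and from -0.25 to 0.066 for Jun, and stressed females over stressed males from -0.14 to 0.34 for Fos and from -0.023 to 0.28 for Jun, which was -0.024 in the HTSeq libraries. The causes were not tested. On CPM alone, not per kilobase, the mean log2 ratio of Fosb over Fos was 1.38 and of Fos over Junb -0.048. With a pseudocount of 0.1 the correlation of Fosb and Jun was -0.0084.

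Counts of called genes depended on the settings. In females (9) they were 27 with DESeq2, 105 without the filter and 14 in the HTSeq libraries. In males (17) they were 31 with DESeq2, 11 with limma voom, 88 without the filter, 5 in the HTSeq libraries, 27 with each sex fitted alone and 7 to 21 without 1 library. On average (48) they were 103 with DESeq2, 207 without the filter, 29 in the HTSeq libraries and 28 to 56 without 1 library. For the sex difference (0) they were 1 with DESeq2 and 36 without the filter. For stressed females over stressed males (13) and control females over control males (16) they were 105 and 54 without the filter, and 10 for the controls in the HTSeq libraries. No paired analysis was possible because no replicate number is shared between groups.

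At 8 to 86 counts of Fos and 10 to 53 of Junb per library, counting error alone is wide. Junb changes smaller than its intervals were not detectable with these 16 libraries. The parts of depth and of library-to-library spread in those intervals were not tested. Counts by featureCounts take each mate on its own, so those 3 libraries hold fewer independent fragments than their counts show. No stressed female library was counted with that tool, and tool and group are partly confounded.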
